A study of Mus musculus with 31 samples.

Results

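Interscapular brown adipose tissue (iBAT) of mice kept at 4 °C for 4 days was compared with that of mice killed without cold exposure. The comparison rested on 6 of the 31 libraries of the series, taken by their labels: the libraries iBAT548, iBAT550 and iBAT555 at day 4 and iBAT516, iBAT517 and iBAT518 at day 0. All mice were male C57BL/6J of 8 weeks that spent 8 days at thermoneutrality before the cold began, with no transgene named. Tissue was snap frozen, and libraries were made from 1 µg of Trizol-extracted total RNA. The series also holds 4 iBAT libraries of day 2 in the cold and libraries of inguinal (iWAT) and epididymal (eWAT) white fat. The labels number the libraries but do not say that each is a separate mouse, so the p-values measure the spread between these samples.

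Brown adipocytes burn fatty acids and glucose to make heat. Noradrenaline from sympathetic nerves acts on β-adrenergic receptors, cyclic AMP rises, lipid droplets release fatty acids, and the uncoupling protein UCP1 lets protons return across the inner mitochondrial membrane without making ATP. Days of cold are known to raise the expression of Ucp1 and of genes for thyroid hormone activation, fatty acid elongation, lipid synthesis and respiration, while thermoneutrality leaves the tissue at rest.

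The 3 day 0 libraries held 2714207, 3754179 and 3756389 counts, the day 4 libraries 3422683, 2202676 and 2852659, and the day 2 libraries from 1577168 to 2986644. Of 13933 transcript accessions with a row in the iBAT table, 8270 passed the filter on low counts and were tested. The library iBAT548 stood apart. It held counts for 7535 accessions, it had no value for 1267 of the tested features, and no value for 4.39% of the 1868 features with a median of 20 to 50 CPM, where 8 of the 10 iBAT libraries had none missing. Levels below are in CPM, counts scaled to a common library total with TMM factors, and are given in the order iBAT516, iBAT517, iBAT518 and then iBAT548, iBAT550, iBAT555. Brown fat identity was visible in all 6 libraries: Ucp1 reached at least 4052 CPM in each, Cidea lay between 192 and 401 CPM, and Zic1, a transcription factor of brown adipocytes, between 10.9 and 21.7 CPM. Ebf2, another such factor, had 9.01 to 13.0 CPM in 5 libraries and no count in iBAT548. Ppargc1a and Prdm16 were not analysed here.

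After 4 days in the cold, most members of the lists for heat production, fat synthesis and mitochondrial respiration had positive log2 changes, and most immediate early genes had negative ones. No single feature passed the test. edgeR's quasi-likelihood test called 0 of 8270 features higher (0.0%) and 0 lower (0.0%) at an adjusted p under 0.05, with a lowest adjusted p of 0.143. At an unadjusted p under 0.05 it counted 309 features higher (3.74%) and 272 lower (3.29%). DESeq2 on the same counts called 54 higher (0.653%) and 27 lower (0.326%), and limma voom called 0 in either direction. In 700 features (8.46%) every day 4 library lay above every day 0 library, and in 893 (10.8%) every day 4 library lay below; 290 of those 893 had no value in iBAT548. Leaving out iBAT548 gave 1687 features above (20.4%) and 1714 below (20.7%). The median log2 change over all tested features was -0.04, and 47.6% of the changes were positive.

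The spread between libraries was wide, with a common biological coefficient of variation of 0.55. A score placed each iBAT library on the main axis of variation within groups of the 2 white fat depots, not of iBAT itself. Its sign was set by the keratin gene Krt17, and its unit is the SD over the iBAT libraries. The score put iBAT548 at 1.522 and the day 2 libraries iBAT535 and iBAT539 at 1.3 and 1.231, while the other iBAT libraries lay at 0.106 or below. With that score as a covariate, edgeR called 14 features higher (0.169%) and 6 lower (0.0726%). Without the 3 libraries of high score, it called 17 higher (0.205%) and 2 lower (0.0242%). The DESeq2 counts also depended on single libraries: without iBAT516, iBAT518, iBAT550 or iBAT555 they were 34, 24, 29 and 19 higher and 12, 11, 21 and 13 lower, and without iBAT548 they were 58 higher and 40 lower. Across these 3 alternatives (DESeq2, the score, and the fit without the 3 libraries) 85 features were called at least once and 10 every time. The 10 were Acot11, Adcy10, Angptl8, Ankrd9, Ctsz, Fam131c, Ffar4, Letm1, Mfsd2a and Tesc, all of them higher at day 4. These 3 alternatives are among the settings that gave calls, and they refit the same libraries, so a call in each is no independent support. The fit without the 3 libraries kept only iBAT550 and iBAT555 at day 4. edgeR with RLE factors, with library size alone or with summed muscle markers as a covariate called 0 features, as did limma voom.

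Among the genes with the smallest p, Elovl3 and Acot11 are classic cold-responsive genes of brown fat. Elovl3, a fatty acid elongase (NM_007703, chr19:46131897-46135694; gene positions from RefSeq on GRCm38), had 51.8, 14.4 and 76.2 CPM at day 0 and 529, 453 and 391 CPM at day 4. All day 4 libraries lay more than 5 times above the highest day 0 library (log2 change 3.27, SE 0.58, edgeR adjusted p = 0.143; DESeq2 adjusted p = 3.16e-05). Acot11, an acyl-CoA thioesterase first described as cold-inducible in brown fat, had 86.5, 74.7 and 62.8 CPM at day 0 and 513, 275 and 279 CPM at day 4 (log2 change 2.25, SE 0.41, edgeR adjusted p = 0.143; DESeq2 adjusted p = 4.74e-05). The day 0 libraries were close together, and iBAT548 was the highest of day 4; without it the change was 1.90.

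Letm1, an inner mitochondrial membrane protein of ion exchange, was among the steadiest of these genes. It had 304, 189.7 and 259 CPM at day 0 and 827, 1172 and 1161 CPM at day 4 (log2 change 2.07, SE 0.36, edgeR adjusted p = 0.143; DESeq2 adjusted p = 2.03e-05). Adcy10 encodes the soluble adenylyl cyclase, which answers to bicarbonate rather than to receptors. Its level was low but tight within groups, 4.18, 4.07 and 3.23 against 18.2, 24.2 and 24.2 CPM (log2 change 2.52, SE 0.44, edgeR adjusted p = 0.143). Tesc, the calcium-binding protein tescalcin, had 2.90, 2.15 and 1.85 against 13.5, 29.6 and 25.7 CPM (log2 change 3.30, SE 0.53, edgeR adjusted p = 0.143). In both genes iBAT548 was the lowest day 4 library. Lack of overlap between the groups was a condition for choosing them, which 700 of all tested features (8.46%) met.

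Angptl8, a secreted inhibitor of lipoprotein lipase activity, had 20.9, 10.1 and 15.9 CPM at day 0 and 74.1, 80.9 and 127 CPM at day 4 (log2 change 2.59, SE 0.45, edgeR adjusted p = 0.143). Mfsd2a, a transporter of lysophosphatidylcholine, had 3.86, 1.92 and 2.08 against 32.1, 14.3 and 44.0 CPM, an 11.5-fold difference in fitted level (log2 change 3.52, SE 0.64, edgeR adjusted p = 0.143). Ffar4, a receptor for long-chain fatty acids, had 31.2, 23.2 and 18.2 against 67.7, 95.8 and 154 CPM (log2 change 2.13, SE 0.45, edgeR adjusted p = 0.202), and Retsat, the retinol saturase, 91.7, 152 and 103 against 469, 327 and 404 CPM (log2 change 1.79, SE 0.36, edgeR adjusted p = 0.177). The groups were apart in each of the 4 genes, which for Angptl8, Mfsd2a and Retsat was a condition for choosing them.

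The other features with the smallest p among the higher ones were Ctsz, Ankrd9, Cars2 and Ttc25. Ctsz, the lysosomal protease cathepsin Z, had 414, 346 and 389.8 against 1557, 2465 and 1393 CPM (log2 change 2.24, SE 0.43, edgeR adjusted p = 0.177). Ankrd9 had 67.2, 55.6 and 79.2 against 204, 281 and 420.3 CPM and Cars2, the mitochondrial cysteinyl-tRNA synthetase, 65.6, 62.3 and 54.5 against 176, 285 and 241 CPM, with log2 changes of 2.16 (SE 0.42) and 1.94 (SE 0.38). Ttc25 was uneven, 11.6, 6.71 and 9.47 against 100.02, 26.2 and 49.9 CPM: iBAT548 lay far above the rest, and the change without it was 2.05 against 2.67 with it. Ptgds, a prostaglandin D synthase, had day 4 libraries close to each other, 24.1, 30.4 and 13.9 CPM at day 0 and 107, 100.2 and 101 CPM at day 4 (log2 change 2.17, SE 0.44). Ffar4 and Ptgds were named after their values were seen. Leaving out any 1 of the 10 iBAT libraries kept the sign of all 14 genes described from Elovl3 to Ptgds. The lack of overlap between their groups all but fixes that outcome, so it is no added support.

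**Figure D1:**
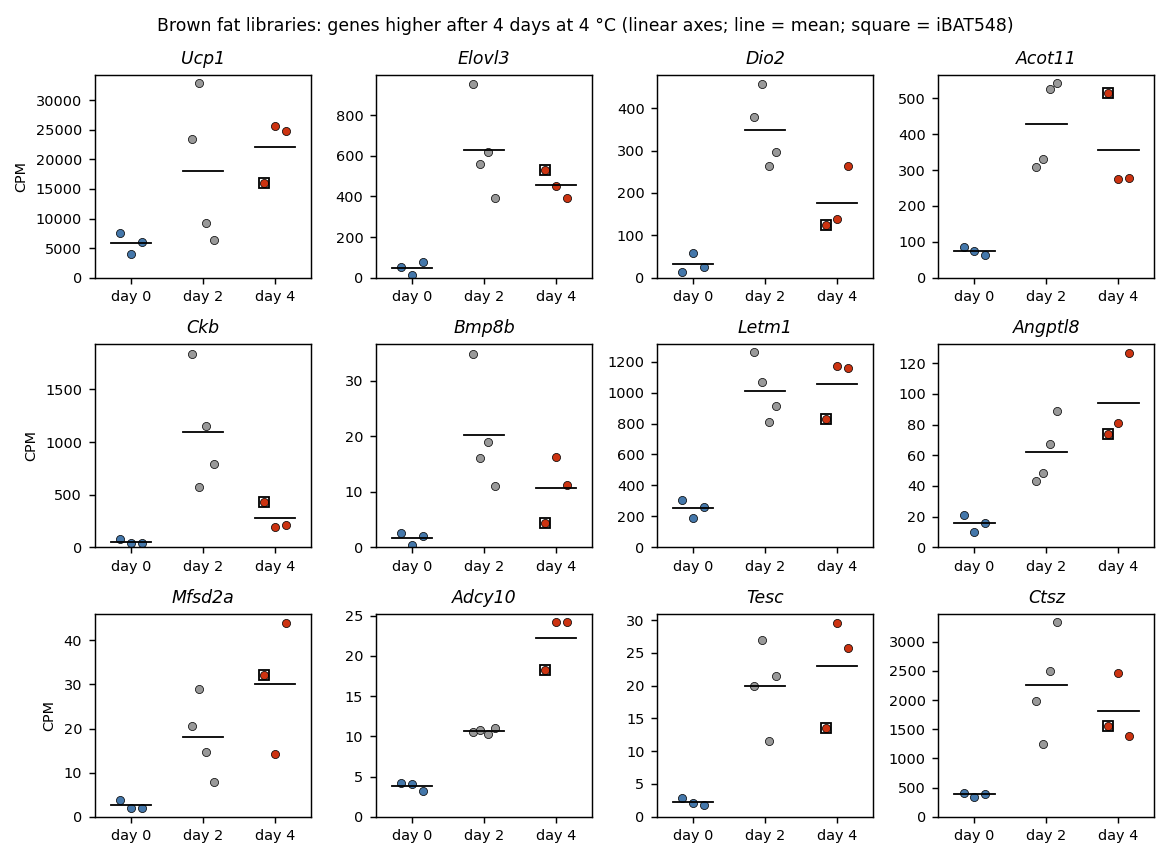
Level (CPM, linear axes from 0) of 12 genes in each brown fat library at day 0, day 2 and day 4, with the mean as a line and iBAT548 boxed. In all 12 genes the 3 day 4 libraries lie above the 3 day 0 libraries, and in Ckb the 4 day 2 libraries lie above those of day 4.

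The plot of the genes higher after cold shows each library of these genes and of the heat-production genes that follow. The list of thermogenic and brown adipocyte genes had 18 tested members, of which 15 were higher at day 4, against 47.6% of all features. The median log2 change was 1.29, and it stayed between 1.02 and 1.44 under the 21 alternative settings. In 9 members every day 4 library lay above every day 0 library, in 12 without iBAT548, and in none below, beside 8.46% of all features above (20.4% without iBAT548). No member passed edgeR's test, and DESeq2 called Dio2, Elovl3, Acot11, Otop1 and Letmd1 higher, beside 0.653% of all features.

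Ucp1, the proton leak of brown fat (NM_009463, chr8:83290348-83298456), had 7518, 4052 and 6098 CPM at day 0 and 15919, 25631 and 24816 CPM at day 4. The lowest day 4 library held more than 2 times the highest day 0 library, and the group means were 5889 ± 1742 and 22122 ± 5387 CPM (SD, n = 3 each). The test did not call it (log2 change 1.91, SE 0.59, edgeR adjusted p = 0.519; DESeq2 adjusted p = 0.0931), and the fit without the 3 libraries of high score did, with a log2 change of 2.10 (edgeR adjusted p = 0.0365). Adjusted p ranged from 0.0365 to 1.0 over the alternatives.

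Dio2 makes the active thyroid hormone inside the brown adipocyte. It had 13.2, 57.7 and 25.4 CPM at day 0 and 124, 138 and 264 CPM at day 4 (log2 change 2.44, SE 0.55, edgeR adjusted p = 0.248; DESeq2 adjusted p = 0.00265), and the lowest day 4 library held more than 2 times the highest day 0 library. Bmp8b, a secreted factor of active brown fat, was near the counting limit at day 0, 2.57, 0.479 and 2.08 against 4.41, 16.3 and 11.2 CPM (log2 change 2.61, SE 0.74, edgeR adjusted p = 0.412). Otop1, a proton channel, had 144, 146 and 158 against 442, 336 and 396 CPM (log2 change 1.39, SE 0.32; DESeq2 adjusted p = 0.00077), and Letmd1 had 295, 279 and 380.1 against 680.1, 1734 and 1323 CPM (log2 change 1.97, SE 0.53). Kcnk3, a potassium channel of brown adipocytes, had 198, 407 and 162 against 480.1, 561 and 515 CPM, and Cox7a1, a cytochrome oxidase subunit of heart and brown fat, 1236, 841 and 959 against 1515, 2746 and 2699 CPM.

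Other genes of brown fat did not separate the groups. Cidea, a lipid droplet protein long used as a brown fat marker, had 401, 192 and 218 against 203, 375 and 326 CPM, and Adrb3, the β3-adrenergic receptor, 122, 100.1 and 188 against 112, 92.8 and 108 CPM. Fgf21, a secreted factor, had 1.29, 0.479 and 0.462 against 0, 5.92 and 7.08 CPM: it was present in iBAT550 and iBAT555 and without a count in iBAT548. Cox8b was high in iBAT548 alone, 618, 2619 and 578 against 16109.8, 304 and 624 CPM; its log2 change was 2.16 with that library and -1.45 without it. Ucp3, a relative of Ucp1, had 9.97, 10.8 and 11.8 against 0, 8.39 and 10.8 CPM and no call.

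Ckb, the brain-type creatine kinase that has been tied to creatine cycling in brown fat, was the clear member of the creatine list. It had 78.2, 41.2 and 43.9 CPM at day 0 and 426, 194 and 211 CPM at day 4 (log2 change 2.35, SE 0.53, edgeR adjusted p = 0.248; DESeq2 adjusted p = 0.00419). Of the 6 tested members 4 were higher, with a median of 0.20 that turned to -0.79 without iBAT548. The muscle creatine kinase Ckm had 929, 1612 and 2059 against 4929.9, 594 and 190.0 CPM, and Gamt, which makes creatine, 16.4, 20.4 and 36.5 against 1.47, 10.4 and 7.45 CPM.

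The promoter of Dio2 carries the palindrome TGACGTCA, the cyclic AMP response element, and it is printed to show where that site lies in a gene of adrenergic response. The sequence runs 250 bases up to the transcript start at chr12:90739039-90739288 (RefSeq, GRCm38.p6, minus strand, printed 5′ to 3′), and the capitals mark the palindrome, 95 bases before the start. The gene was chosen for display after its values and sequence were seen.
Dio2: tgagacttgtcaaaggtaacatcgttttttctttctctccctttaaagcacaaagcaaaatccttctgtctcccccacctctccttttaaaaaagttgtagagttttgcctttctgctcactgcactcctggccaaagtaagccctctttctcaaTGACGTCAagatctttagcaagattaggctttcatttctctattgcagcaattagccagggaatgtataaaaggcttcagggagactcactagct
In all, 4 motifs were searched on both strands of every window in the promoter table, which reaches 50 bases past the start: the palindrome, its core TGACG, a nuclear receptor direct repeat with 1 base between, and the site TCAAGGTCA of estrogen-related receptors. The palindrome, which contains the core, stood in 7 of 296 windows (2.36%) of genes higher at an unadjusted p under 0.05, in 4 of 269 (1.49%) of genes lower, and in 237 of 7644 (3.10%) of all tested genes. The receptor site stood in 3 windows (1.01%) of genes higher, in 1 (0.372%) of genes lower and in 22 (0.288%) of all tested genes, and the direct repeat in 0, 0 and 3 (0.0392%). The windows of Acot11 and Ckb held none of the 4 motifs.

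Of 13 tested genes of de novo lipogenesis 12 had a positive log2 change, with a median log2 change of 0.80 (0.55 to 0.99 over the alternatives), and 6 were above without overlap (10 without iBAT548), beside 8.46% of all features (20.4% without iBAT548). No member passed edgeR's test. Fasn, the fatty acid synthase, had 4342, 5013 and 4262 CPM at day 0 and 11084, 12539.7 and 15027 CPM at day 4, with means of 4539 ± 412 and 12884 ± 1994 CPM (SD, n = 3 each; log2 change 1.51, SE 0.44, edgeR adjusted p = 0.44). The groups were well apart and each was tight. Thrsp, a lipogenic protein under thyroid hormone control, had 2987, 2909 and 2461 against 4968, 8217 and 9416 CPM, Elovl6 207, 180.3 and 296 against 334, 591 and 599.5 CPM and the citrate carrier Slc25a1 204, 524 and 398 against 633, 827 and 1414 CPM. Scd1, the stearoyl-CoA desaturase and the most abundant member, had 18198, 15597 and 17881 against 23284, 21369.5 and 23760.1 CPM, a log2 change of 0.40 (SE 0.36). DESeq2 called none of these 13 genes.

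Of 9 tested genes of glycerol handling and triglyceride assembly 7 were higher (median 0.81), with Gpd1, Agpat2, Agpat3 and Mogat1 above without overlap, beside 8.46% of all features. Gpd1, which makes glycerol 3-phosphate from a glycolytic intermediate, had 1458, 1615 and 1497 CPM at day 0 and 3143, 4594 and 6341 CPM at day 4 (log2 change 1.62, SE 0.41, edgeR adjusted p = 0.378; DESeq2 adjusted p = 0.0103). Mogat1 had 2.90, 3.35 and 6.47 against 12.6, 15.3 and 14.2 CPM. NADPH for fat synthesis comes in part from the pentose phosphate pathway, whose 6 tested members were all higher (median 0.87): G6pdx had 24.1, 62.5 and 74.4 against 116, 169.8 and 201 CPM, Pgd 129, 381 and 221 against 530.4, 540.5 and 883 CPM and Taldo1 1667, 1888 and 1191 against 2649, 3783 and 3452 CPM. G6pdx, Pgd and Taldo1 were above without overlap, beside 8.46% of all features. Sterol synthesis had 11 of 17 members higher (median 0.43), among them Nsdhl with 27.7, 25.4 and 25.2 against 97.4, 72.1 and 61.9 CPM.

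Of 20 tested oxidation genes 16 were higher (median 0.61; 0.36 without iBAT548), and 5 were above without overlap, beside 8.46% of all features. Slc25a20, which carries acylcarnitines into mitochondria, had 916, 751 and 795 CPM at day 0 and 3002, 2092 and 1755 CPM at day 4 (log2 change 1.48, SE 0.40, edgeR adjusted p = 0.384; DESeq2 adjusted p = 0.0263). Hadha, a subunit of the trifunctional protein, had 545, 315 and 441 against 1007, 1129.8 and 884 CPM, and Cpt2 1009, 864 and 668 against 1449.9, 1383 and 1377 CPM. Acadvl, the very long chain dehydrogenase, was high in iBAT548 alone, 629, 1964 and 732 against 5769, 1168 and 1024 CPM, so that its log2 change of 1.26 became -0.01 without that library. Acsl5, an acyl-CoA synthetase, had 252, 188 and 227 CPM at day 0 and 1883, 1080.5 and 1141 CPM at day 4 (log2 change 2.62, SE 0.65, edgeR adjusted p = 0.352; DESeq2 adjusted p = 0.00931). Lpl, which frees fatty acids from lipoproteins, overlapped, 1403, 2645 and 2632 against 4320.1, 2189 and 2305 CPM, and Fabp4, the cytosolic fatty acid carrier, had 5108, 5665 and 9903 against 11054, 13216 and 10655 CPM.

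On the lipid droplet, 8 of 10 members were higher (median 0.58). Plin2, the coat protein of small droplets, had 106, 335 and 216 against 748, 419 and 562 CPM. Abhd5, the activator of triglyceride lipase, had 65.9, 86.0 and 118 against 110.3, 234 and 234 CPM and overlapped through iBAT548.

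Of 13 tested genes of glucose uptake and glycolysis 10 had a positive log2 change and 3 a negative one (median 0.73), with 4 above without overlap and 8 without iBAT548, beside 8.46% and 20.4% of all features. Neither edgeR nor DESeq2 called a member of this list or of the list for pyruvate entry. Slc2a4, the insulin-responsive glucose transporter, had 86.2, 115 and 121 against 151, 224 and 161 CPM, while Slc2a1 had 6.75, 8.62 and 12.2 against 7.35, 10.4 and 10.1 CPM and a log2 change of 0.00 (SE 0.59). Pfkl, the liver-type phosphofructokinase, had 158, 193 and 145 against 231, 679.7 and 745 CPM and Hk2, hexokinase 2, 897, 537 and 886 against 452, 2605 and 2215 CPM; in Hk2 iBAT548 was the lowest of all 6 libraries. Pgk1 had 1068, 759 and 972 against 3098, 3498 and 2368 CPM and Pgam1 429.7, 324 and 528 against 1172, 831 and 783 CPM, and both have near-identical copies in the genome, so their counts are uncertain.

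At the entry of pyruvate, 9 of 12 tested genes had a positive log2 change (median 0.90) and 6 were above without overlap, beside 8.46% of all features. Pdha1, the catalytic α subunit of pyruvate dehydrogenase, had 9319.8, 6629 and 5933 CPM at day 0 and 12377, 17034 and 13155 CPM at day 4 (log2 change 0.96, SE 0.35, edgeR adjusted p = 0.573), Pdhb 677, 760.3 and 503 against 1018, 1832 and 1767 CPM and Pdhx 119, 187 and 109 against 239, 314 and 301 CPM. Mpc1, a subunit of the pyruvate carrier, had 401, 684 and 694 against 6389, 1588 and 1361 CPM; the change of 2.39 was 1.32 without iBAT548. Pdk4, a kinase that shuts the complex off, had 2355, 3244 and 3171 against 540.1, 3799 and 4157 CPM, with iBAT548 below all others and a log2 change of -0.05. In glycogen metabolism 10 of 17 genes were higher, and the liver-type glycogen synthase Gys2 stood out with 8.04, 23.0 and 13.6 CPM at day 0 and 137, 67.6 and 92.8 CPM at day 4 (log2 change 2.73, SE 0.58, edgeR adjusted p = 0.202; DESeq2 adjusted p = 0.000989).

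**Figure D2:**
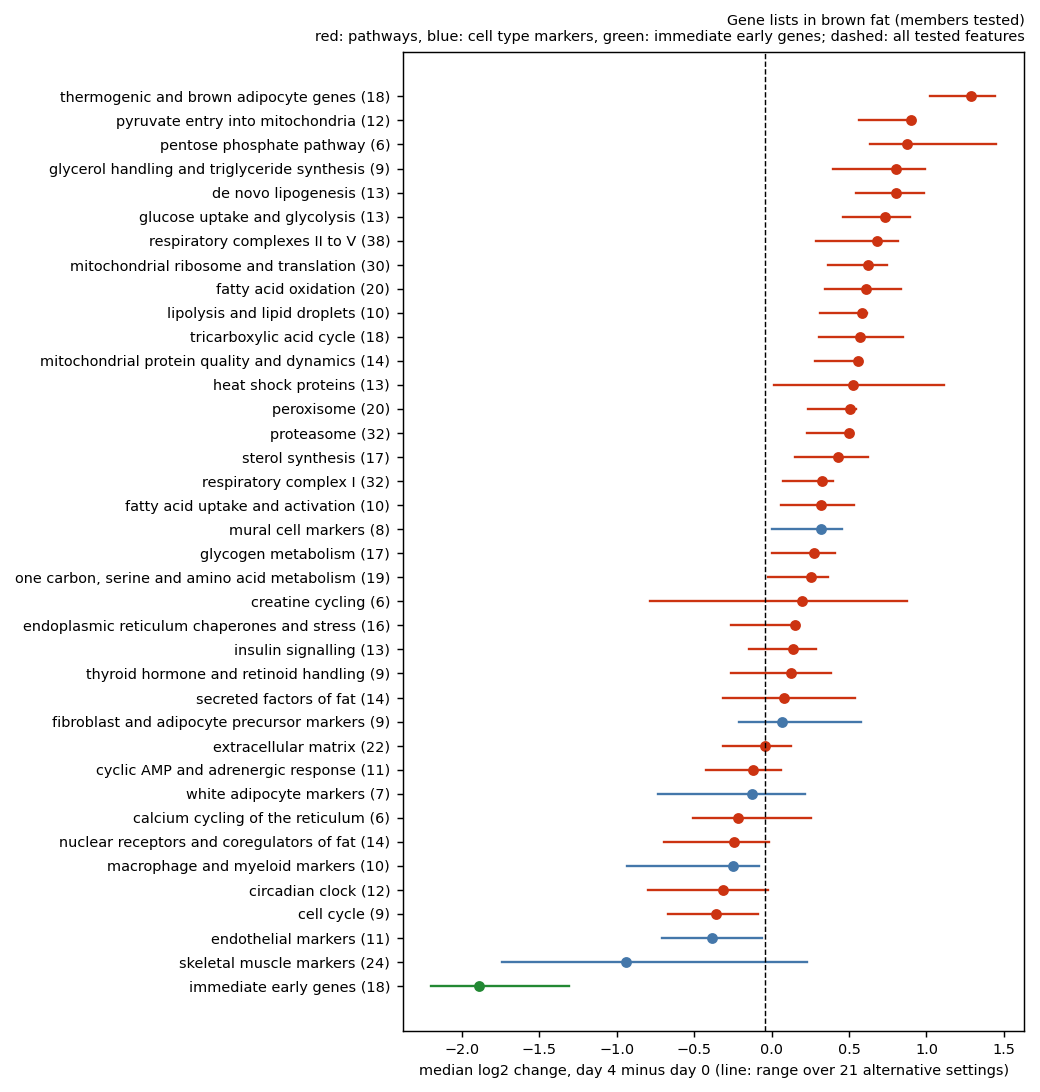
Median log2 change (day 4 minus day 0) of each gene list with at least 6 tested members, as a point, with its range over 21 alternative settings as a line; list size in brackets. Thermogenic genes have the highest median, 1.29, immediate early genes the lowest, -1.89, and the dashed line marks the median of all tested features, -0.04.

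The plot of list medians shows that mitochondrial lists lay on the same side as fuel use. For respiratory complexes II to V 34 of 38 members were higher, with a median of 0.68 and a range of 0.28 to 0.81 over the alternatives. In 9 members all day 4 libraries were above, and in 25 without iBAT548, beside 8.46% and 20.4% of all features; 1 was below, beside 10.8%. Uqcrc2, a core subunit of complex III, had 1231, 1515 and 1082 CPM at day 0 and 2898, 2802 and 3319 CPM at day 4 (log2 change 1.24, SE 0.33, edgeR adjusted p = 0.384; DESeq2 adjusted p = 0.00152). Atp5b, the catalytic β subunit of ATP synthase, had 5134, 7053 and 6454 against 9101, 17486 and 15451 CPM, and Cyc1, cytochrome c1, 2132, 2982 and 1457 against 4614, 3839 and 3714 CPM. Atp5e, the small ε subunit, went the other way, 79.1, 72.3 and 94.7 against 52.4, 28.1 and 24.96 CPM.

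For complex I 26 of 32 members were higher, and the median was 0.32. Ndufa10 had 396, 317 and 296 against 847, 931 and 729 CPM, and Ndufc2 was lower in all 3 libraries, 2037, 992 and 1931 against 618, 639 and 838 CPM. Of 30 genes of the mitochondrial ribosome and translation 27 were higher (median 0.62), 10 without overlap, beside 8.46% of all features. Mrps7 had 273, 282 and 251 against 372, 550.4 and 421 CPM and Polrmt, the mitochondrial RNA polymerase, 56.0, 80.5 and 57.0 against 148, 111 and 145 CPM. Mrpl54 had 254, 154 and 217 against 546, 677 and 570.1 CPM (log2 change 1.52, SE 0.38, edgeR adjusted p = 0.352; DESeq2 adjusted p = 0.0163).

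The tricarboxylic acid cycle had 15 of 18 members higher (median 0.57; 0.32 without iBAT548). In 1 member, Dlst, the day 4 libraries were above without overlap, 939, 1453 and 790.3 against 1700.0, 1998 and 2085 CPM, a share near the 8.46% of all features. Idh3a and Mdh2 had log2 changes of 1.31 and 1.03, and of -0.08 and 0.17 without iBAT548. Esrra, the estrogen-related receptor that drives respiratory genes, had 150.2, 204 and 97.9 against 376, 309 and 309 CPM. Its log2 change was 1.14 (SE 0.38, edgeR adjusted p = 0.536), and its part in the changes above was not tested.

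Of 32 proteasome genes 26 were higher (median 0.50), 11 without overlap and 19 without iBAT548, beside 8.46% and 20.4% of all features. Psmb5, a catalytic subunit, had 866, 959 and 715 against 1055, 2104 and 1706 CPM and the ATPase subunit Psmc4 52.1, 59.9 and 52.0 against 67.1, 147 and 157 CPM. Peroxisome genes were higher in 15 of 20 (median 0.50), 4 of them without overlap, beside 8.46% of all features. Heat shock proteins were higher in 11 of 13 (median 0.53), with a range of 0.02 to 1.11 over the alternatives. Endoplasmic reticulum chaperones had a median of 0.15, and Xbp1, the transcription factor of the unfolded protein response, had 245, 29.7 and 181 against 6.18, 31.6 and 21.6 CPM; the groups overlapped through iBAT517.

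Several lists had medians near or below that of all features. The cyclic AMP and adrenergic list had 5 of 11 members higher (median -0.12). Nuclear receptors and coregulators, the list that holds Esrra, had 6 of 14 members higher (median -0.24). Of these members Esrra alone lay above without overlap, beside 8.46% of all features. Thra, Nr1d1, Nr1d2 and Nr4a1 lay below without overlap, beside 10.8%. The circadian clock had a median of -0.31. Within the clock, Nr1d1 had 216, 206 and 217 against 60.9, 146 and 133 CPM and Nfil3 10.9, 22.8 and 14.1 against 56.2, 37.5 and 36.9 CPM, in opposite directions. The labels give no hour of dissection. Extracellular matrix genes had 10 of 22 members higher and 12 lower (median -0.04). In 5 members the day 4 libraries lay above without overlap, beside 8.46% of all features. In 3, Col3a1, Col5a1 and Svep1, they lay below, beside 10.8%. Of the 5, the collagen IV gene Col4a2 had 373, 431 and 347 against 842, 718 and 632 CPM. Loxl1, a lysyl oxidase, had 12.5, 12.2 and 25.6 against 52.7, 104 and 67.1 CPM. Lep, the hormone leptin, was lower without overlap, 16.7, 12.2 and 13.2 against 0, 11.4 and 4.47 CPM, and Adipoq, adiponectin, had 2141, 2070.3 and 2516 against 352, 1819 and 2264 CPM, with iBAT548 lowest.

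Among the lower genes, Svep1 and Impdh1 had smaller p by edgeR than the immediate early genes Fos, Btg2 and Egr1. Svep1, a large extracellular matrix protein, had 99.7, 50.1 and 89.4 CPM at day 0 and 17.4, 9.87 and 17.9 CPM at day 4 (log2 change -2.40, SE 0.42, edgeR adjusted p = 0.143; DESeq2 adjusted p = 4.81e-05). The highest day 4 library held less than the lowest of day 0, and leaving out any 1 library kept the change between -2.66 and -2.18. Impdh1, which limits guanine nucleotide synthesis, had 362, 671 and 238 CPM at day 0 and 25.6, 65.6 and 84.2 CPM at day 4 (log2 change -2.86, SE 0.53, edgeR adjusted p = 0.164; DESeq2 adjusted p = 7.68e-05). Rgs2, a regulator of G protein signalling, had 274, 351 and 160.3 CPM at day 0 and 60.9, 62.7 and 96.5 CPM at day 4 (log2 change -1.83, SE 0.41, edgeR adjusted p = 0.248).

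Fgf16, a growth factor of embryonic brown fat, had 6.75, 9.82 and 3.69 CPM at day 0 and no count in any day 4 library. In iBAT548 the value was missing and was read as 0. Only if that is a true 0 does a floor of 3 counts over the day 4 group make Fgf16 at least 21.6-fold lower. A bound without iBAT548 was not computed. Acat3 was close to absent at day 4 as well, 16.1, 8.38 and 13.9 against 0, 0.494 and 1.12 CPM (DESeq2 adjusted p = 0.00293). Gpx3, the secreted glutathione peroxidase and an abundant transcript, had 4376, 8763 and 5138 CPM at day 0 and 1142, 1922 and 2670.0 CPM at day 4 (log2 change -1.67, SE 0.44, edgeR adjusted p = 0.378; DESeq2 adjusted p = 0.0187). The water channel Aqp1 had 541, 412 and 304 against 92.1, 187 and 165 CPM and was called lower by DESeq2.

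**Figure D3:**
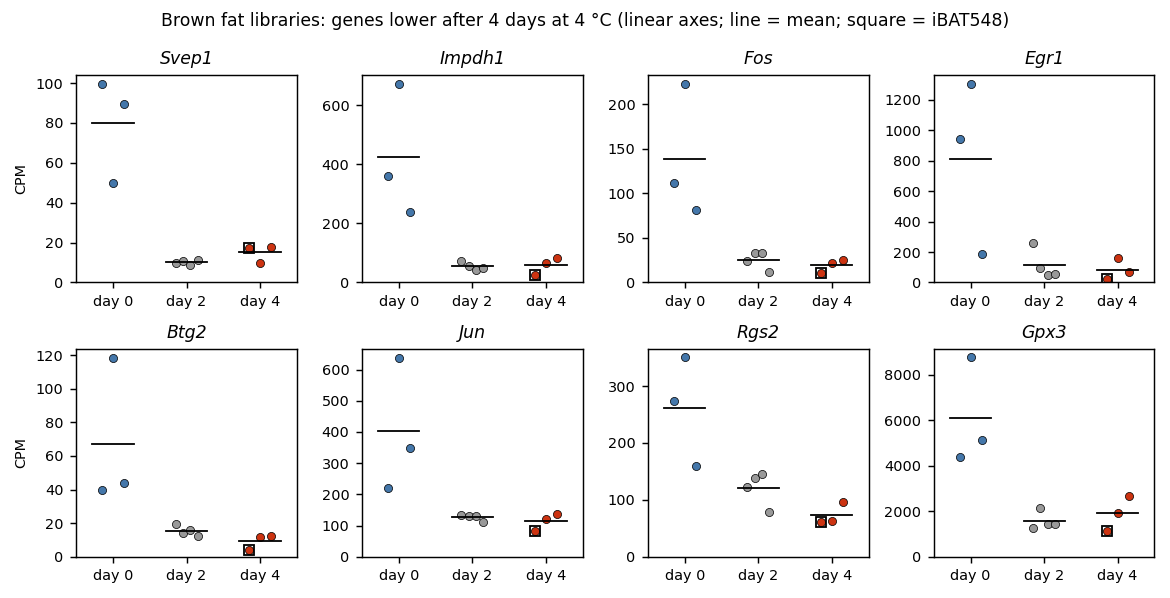
Level (CPM, linear axes from 0) of 8 genes in each brown fat library at day 0, day 2 and day 4, with the mean as a line and iBAT548 boxed. In all 8 genes the 3 day 4 libraries lie below the 3 day 0 libraries, and in Egr1 the day 0 libraries span 187 to 1303 CPM.

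Immediate early genes, which are switched on within minutes by stimulation or by handling of tissue, were the list with the lowest median. Of 18 tested members 16 were lower, with a median log2 change of -1.89 (-2.20 to -1.31 over the alternatives; -1.67 without iBAT548). In 11 members every day 4 library lay below every day 0 library, and in 12 without iBAT548, beside 10.8% and 20.7% of all features. DESeq2 called 7 of the 18 lower, beside 0.326% of all features: Fos, Jun, Egr1, Zfp36, Btg2, Klf2 and Ccn1. Fos, the AP-1 transcription factor subunit (NM_010234, chr12:85473890-85477274), had 111, 223 and 81.1 CPM at day 0 and 10.6, 22.2 and 25.3 CPM at day 4 (log2 change -2.84, SE 0.55, edgeR adjusted p = 0.177). Egr1, a zinc finger factor, had 943, 1303 and 187 CPM at day 0 and 21.8, 160.4 and 70.4 CPM at day 4, with iBAT518 far below the other day 0 libraries (log2 change -3.27, SE 0.92, edgeR adjusted p = 0.409). Btg2 had 39.9, 118 and 43.9 against 4.12, 11.8 and 12.3 CPM, Jun 219, 639 and 348 against 81.2, 121 and 137 CPM and Nr4a1 51.5, 189 and 117 against 22.6, 16.8 and 49.6 CPM.

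Summed over the list, immediate early genes held 2153, 4144 and 1534 CPM of the plain total at day 0, between 527 and 947 at day 2 and 402, 569 and 667 at day 4. The plot of summed markers shows no overlap between day 0 and either cold time point.

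Fos is known to answer to cyclic AMP through such letters near its start, and its promoter is printed to show them beside these values. The 250 bases before the start lie at chr12:85473640-85473889 (RefSeq, GRCm38.p6, plus strand). Capitals mark TGACG, 129 and 66 bases before the start; the sequence was chosen for display after it was seen.
Fos: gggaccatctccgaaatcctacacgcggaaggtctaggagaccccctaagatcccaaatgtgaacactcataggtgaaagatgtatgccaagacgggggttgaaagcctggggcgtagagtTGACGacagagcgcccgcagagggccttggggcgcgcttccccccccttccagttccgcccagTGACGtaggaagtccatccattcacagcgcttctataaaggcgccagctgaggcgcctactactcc
The core stood in 13 of the 20 windows (65.0%) of immediate early genes, in 3 of 13 (23.1%) of thermogenic genes and in 2481 of 7644 (32.5%) of all tested genes. It stood in 98 of 296 windows (33.1%) of genes higher and in 81 of 269 (30.1%) of genes lower at an unadjusted p under 0.05. A match is a run of letters and not a measured binding site.

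Skeletal muscle lies next to interscapular fat, and its markers varied widely. In bulk tissue, fewer cells of a type and less RNA per cell cannot be told apart. The markers summed to 30696, 22909 and 74314 CPM at day 0 and 27519, 18279 and 5312 CPM at day 4. Of 24 tested members 21 were lower (median -0.94), 6 without overlap and 12 without iBAT548, beside 10.8% and 20.7% of all features. Mb and Myl1 each had a transcript with no count in any day 4 library, and their day 0 levels are not given here. The median of the muscle list was -1.74 without iBAT548 and -0.43 without iBAT518. Its range in the plot of list medians ends at 0.23, the fit with the sum of these same markers as a covariate, which moves them toward or past 0 by construction. Acta1, skeletal actin, had 5787, 4144 and 16749 against 4079, 3649.6 and 911 CPM, and Pygm, muscle glycogen phosphorylase, 1508, 471 and 3599 against 102, 348 and 111 CPM (log2 change -3.31, SE 0.80, edgeR adjusted p = 0.315; DESeq2 adjusted p = 0.00288). The calcium release channel Ryr1, with 535.2, 271 and 1035 against 52.4, 197 and 90.2 CPM, and Casq1, with 358, 161 and 811 against 80.9, 129 and 34.3 CPM, both belong to muscle and were also called lower by DESeq2. With the muscle sum as a covariate the thermogenic median was 1.02 and the immediate early median -2.20.

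**Figure D4:**
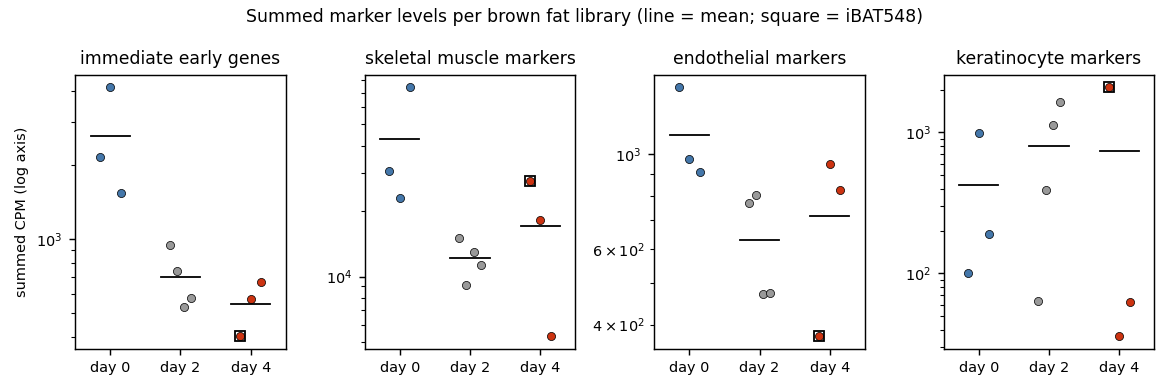
Summed CPM of 4 marker lists in each brown fat library (log axes), by day, with the mean as a line and iBAT548 boxed. Immediate early genes do not overlap between day 0 and day 4, muscle markers do, and keratinocyte markers reach 2098 CPM in iBAT548 against 35.9 and 63.1 in the other day 4 libraries.

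Markers of other cell types differed widely among the day 4 libraries. Keratinocyte markers, mostly Krt17, summed to 2098 CPM in iBAT548 and to 35.9 and 63.1 in iBAT550 and iBAT555, beside 100.2, 989 and 192 at day 0. White adipocyte markers summed to 443, 1849 and 2376 CPM at day 4 and to 2641, 2380 and 3123 at day 0. Endothelial markers summed to 375, 947 and 823 CPM at day 4 and to 1434, 976 and 909 at day 0; 8 of their 11 tested members were lower (median -0.39; -0.06 without iBAT548). Macrophage markers summed to 85.3, 88.5 and 135 CPM at day 4 and to 143, 208 and 139 at day 0, lymphocyte markers to at most 33.6 CPM in these 6 libraries. The part of these cells in the changes of single genes was not tested.

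The comparison with day 2 asks whether 2 further days in the cold changed the tissue. Ckb and Lpl were higher in all 4 day 2 libraries than in the 3 of day 4, and Pdha1 and Scd1 were lower, but no feature passed edgeR's test. It called 0 of 8270 features higher (0.0%) and 0 lower (0.0%), with a lowest adjusted p of 0.986; DESeq2 and limma voom also called 0 at that threshold. At an unadjusted p under 0.05, 107 features were higher at day 4 (1.29%) and 156 lower (1.89%). The share of all features without overlap between day 2 and day 4 was not counted, so the separation in single genes has no background here. The intervals given for single genes are not adjusted for the number of features. Ckb had 1842, 572, 1156 and 794 CPM at day 2, all above the highest day 4 library, and the day 4 minus day 2 difference was -1.98 (95% interval -3.06 to -0.89) on the log2 scale. Lpl had 5299.7, 6956, 7026 and 7652 CPM at day 2 and a difference of -1.20 (95% interval -2.05 to -0.34). Pdha1 had 8302, 7304, 8999 and 8244 CPM at day 2, all below the lowest day 4 library, and a difference of 0.79 (95% interval 0.09 to 1.48). Adcy10 had 10.6, 10.8, 10.3 and 11.0 CPM at day 2, between the other groups, and a difference of 1.05 (95% interval 0.21 to 1.89).

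For 4 thermogenic genes the intervals were wide and included 0. The day 4 minus day 2 difference was 0.30 (95% interval -0.87 to 1.46) for Ucp1, -0.46 (95% interval -1.55 to 0.63) for Elovl3, -0.99 (95% interval -2.07 to 0.09) for Dio2 and -0.26 (95% interval -1.06 to 0.53) for Acot11. Ucp1 had 23446, 32885, 9296 and 6429.7 CPM at day 2, with iBAT535 and iBAT539, the libraries of high score, the lowest. For Fos the difference was -0.42 (95% interval -1.50 to 0.67) and for Svep1 0.58 (95% interval -0.26 to 1.41).

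In the same fit 13 of 8270 features (0.157%) passed at day 2 against day 0 and none at day 4. Both comparisons share the day 0 libraries, and the difference between them is the day 4 minus day 2 value, which passed for no gene. The 13 features are given here because they passed at day 2, and that choice by itself favours larger changes at day 2. Smaller values at day 4 therefore do not show that the response waned. The log2 changes at day 2 and at day 4 were 4.33 and 2.35 for Ckb, 3.44 and 2.44 for Dio2, 3.73 and 3.27 for Elovl3, 2.51 and 2.25 for Acot11, and 3.10 and 3.30 for Tesc. They were 2.56 and 2.24 for Ctsz, 2.53 and 2.16 for Ankrd9, 2.33 and 1.94 for Cars2, 4.06 and 2.88 for the ion channel Hcn2, 3.67 and 2.64 for the kinase Sgk2, and 2.46 and 1.75 for Rom1. Of the lower genes, Svep1 had -2.97 and -2.40 and Impdh1 -2.96 and -2.86.

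Whether brown fat differed from white fat in its day 4 change was tested in 1 fit of all 31 libraries and 11041 features. No difference passed edgeR's test, with a lowest adjusted p of 0.0903 against iWAT and 0.724 against eWAT. DESeq2 called 42 features (0.38%) against iWAT and 28 (0.254%) against eWAT, and limma voom 2 and 0. At an unadjusted p under 0.05 the iBAT change was above that of iWAT in 174 features (1.58%) and below in 462 (4.18%), and above that of eWAT in 107 (0.969%) and below in 338 (3.06%). In this fit the median change of the features tested in iBAT was -0.14 for iBAT, 0.03 for iWAT and 0.02 for eWAT, and each difference carries that offset. Over all 11041 features the median difference was -0.28 against iWAT and -0.26 against eWAT with TMM, and -0.10 and -0.15 with RLE factors.

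**Figure D5:**
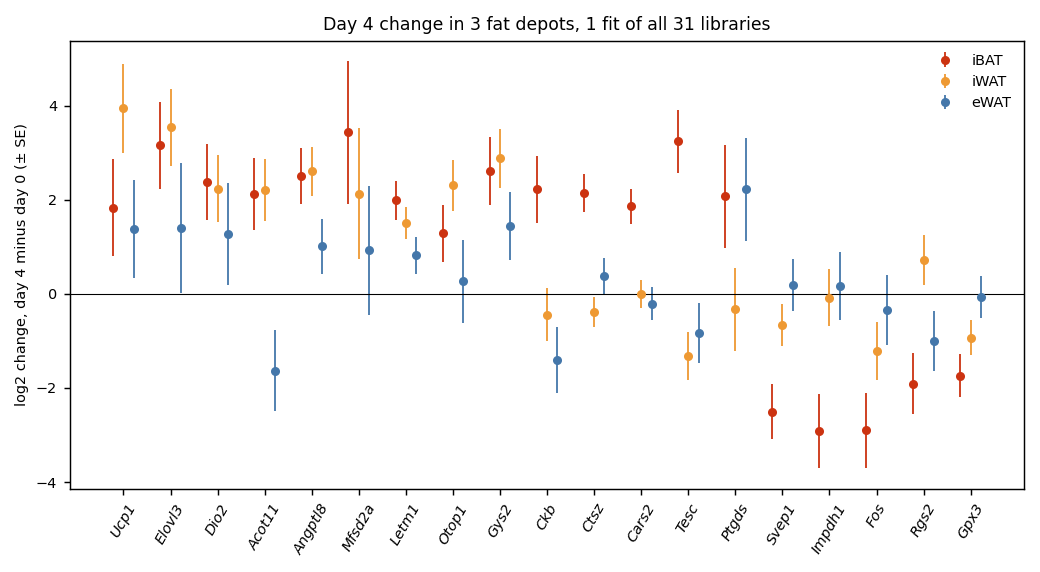
Log2 change from day 0 to day 4 (± SE) of 19 genes in the 3 depots from 1 fit of 31 libraries. Elovl3 has 3.16 in iBAT and 3.54 in iWAT, while Tesc has 3.24 in iBAT and values below 0 in both white depots.

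In the plot of the 3 depots, thermogenic genes had positive changes in inguinal fat too. Ucp1 had log2 changes of 1.83 ± 1.03 for iBAT, 3.94 ± 0.95 for iWAT and 1.37 ± 1.04 for eWAT (difference from iWAT -2.11, SE 1.31). Elovl3 had 3.16 ± 0.92 for iBAT, 3.54 ± 0.82 for iWAT and 1.40 ± 1.38 for eWAT, and Dio2 2.37 ± 0.81 for iBAT, 2.23 ± 0.71 for iWAT and 1.27 ± 1.08 for eWAT. The thermogenic list had medians of 1.20 for brown, 1.46 for inguinal and 0.07 for epididymal fat, complexes II to V 0.60, 0.96 and 0.44, and complex I 0.25, 1.12 and 0.28.

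Among the genes named here DESeq2 called a difference from white fat for Tesc, Ctsz, Cars2, Ckb, Ttc25, Mt2 and Fgf16. Tesc had 3.24 ± 0.67 for iBAT, -1.32 ± 0.51 for iWAT and -0.82 ± 0.64 for eWAT; the difference from iWAT was 4.56, SE 0.83 (edgeR adjusted p = 0.0903; DESeq2 adjusted p = 5.2e-06) and that from eWAT 4.06, SE 0.92 (edgeR adjusted p = 0.724; DESeq2 adjusted p = 0.00233). Ctsz had 2.15 ± 0.41 for iBAT, -0.38 ± 0.32 for iWAT and 0.37 ± 0.39 for eWAT, with a difference from iWAT of 2.53, SE 0.51 (edgeR adjusted p = 0.127; DESeq2 adjusted p = 1.3e-05). Cars2 had 1.86 ± 0.37 for iBAT, 0.00 ± 0.30 for iWAT and -0.21 ± 0.36 for eWAT, and DESeq2 called its difference from both depots. Ckb had 2.22 ± 0.72 for iBAT, -0.44 ± 0.57 for iWAT and -1.41 ± 0.70 for eWAT, and DESeq2 called only its difference from eWAT (3.63, SE 1.00). Immediate early genes had medians of -1.96 for brown, -0.21 for inguinal and -0.11 for epididymal fat; for Fos the difference was -1.69, SE 0.99 from iWAT and -2.56, SE 1.08 from eWAT, and no immediate early gene named here passed either test.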

How the data were processed

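Total RNA from fat of male C57BL/6J mice was sequenced on Illumina instruments. The authors deposited counts of reads per RefSeq transcript accession, 1 table per tissue; per the submitters' processing notes cutadapt, BWA and mm10 were used, with no versions. The counting step, strand setting and treatment of duplicates are not given in the sources used here, so overlapping, antisense and near-identical genes may share reads. Missing values were read as 0.

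The iBAT table held 1577168 to 3756389 counts per library. Features were filtered with filterByExpr (minimum count 10, minimum total 15) and fitted with edgeR 4.0.16 in R 4.3.3 (TMM, quasi-likelihood, Benjamini-Hochberg adjusted p under 0.05, no covariate). The fit held the day 0, day 2 and day 4 libraries of iBAT; differences between depots came from all 31 libraries. DESeq2 1.42.0, limma 3.58.1 (voom), other scalings and filters, covariates and leaving out each library were alternatives. The scripts were tested on simulated data. Gene levels are CPM scaled by TMM, and summed markers are CPM of the plain total. Named genes were a fixed set, the features with the smallest p in each direction without overlap between groups (at least 5 CPM in 1 group), and members of each list; other genes, and the promoters shown, were chosen after their values were seen. Members, gene lists and tests were chosen with earlier results of these data known. Label numbers recur across tissues, and the labels do not say whether they are animals. The 23 pairs with the same number had a median correlation of -0.08 (-0.44 to 0.36) in their deviations from group means. With so few libraries per group, that check cannot decide whether they share an animal. The main fit left them unpaired, and a fit with the number as a block was an alternative. Some results are not reported here. A count of 0 allows up to 3 counts, and such bounds cover counting error only.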

Additional observations from a re-analysis of the deposited data

Results flagged for a closer look

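Of 36 marker sums and genes examined in the 4 day 2 libraries, 4 had a library far from the rest (gap over range above 0.829), and chance flags about 1 in 20 such groups. Red blood cell markers summed to 464.0 CPM in iBAT539 (gap over range 0.952), against 3.35 to 25.4 CPM in the other day 2 libraries. Lymphocyte markers summed to 23.7 CPM in the same library (0.865). Angptl4, an inhibitor of lipoprotein lipase, had 815.0 CPM in iBAT535 (0.843), and Cpt1b, the muscle-type carnitine palmitoyltransferase, had 11.5 CPM in that library (0.964). No cause was tested.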

How the results depend on the processing

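For day 4 against day 0, edgeR called 0 features in either direction. Without the filter it called 1 higher, with the library score as a covariate 14 higher and 6 lower, and without the 3 libraries of high score 17 higher and 2 lower; DESeq2 called 54 higher and 27 lower. Over the fits that leave out 1 library edgeR called 0 each time, and DESeq2 19 to 62 higher and 11 to 40 lower, a range added after seeing the data. Against iWAT, DESeq2 called 42 differences, limma voom 2, and edgeR 0 to 3 when 1 library was left out, the 3 without iBAT548; against eWAT, DESeq2 called 28. The cause was not tested. Counting non-overlap without iBAT548 was also added after seeing the data: it gave 1687 features above and 1714 below, against 700 and 893. The median over all features was -0.04 with TMM, -0.30 with library size alone, -0.22 without the filter, -0.17 with the score and -0.16 with voom. Of 203 named genes, 173 kept their sign over 21 alternatives, and 30 changed sign in at least 1; no called value reversed, since edgeR called none. Genes missing in iBAT548 and those under a few CPM have uncertain levels. iBAT548 held 3422683 counts, the most of the day 4 libraries, and the cause of its missing values was not tested. No paired analysis was possible because label numbers do not recur between the time points of iBAT. For the depot differences, the replicate block gave 0 calls against iWAT and 0 against eWAT, with 592 and 693 features at an unadjusted p under 0.05 against 636 and 445 without it.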
